A study of Rattus norvegicus with 3 samples.

Results

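Proliferating double-positive thymocytes, labelled DP-P by the authors, were studied in a single-cell RNA library of thymocytes from 8-week-old Lewis rats, an inbred strain. A cell was taken as DP-P by its deposited label, which is the projected label where 1 was given and the initial cluster otherwise, and all 848 DP-P cells carried a projected label. They made up 848 of 8546 annotated cells, or 9.92% (95% exact Clopper-Pearson interval 9.30 to 10.6), and held 26.5% of the UMIs of annotated cells, a UMI (unique molecular identifier) being the tag of a single captured RNA. The comparison groups were 390 double-negative cells (DN) and 5202 resting double-positive cells (DP) of the same library. All 3 share strain, age, tissue and dissociation with collagenase D and DNase I, no allele or treatment is named in the labels, and no marker sort is described for the thymocytes. How many rats gave cells is not given in the sources used here. The labels drew on rat libraries and published mouse references, so levels between labels describe the cells that a label gathers and are not independent of the labelling. A spatial section of the same strain and age, 10 µm thick, was measured by Stereo-seq (RNA captured on a patterned chip) and is used at the end. With 1 sample per group no test was possible, no p-value is given, and all intervals are 95% intervals for counting error only.

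T cell precursors enter the thymus with neither CD4 nor CD8 on their surface. Those that assemble a working T cell receptor beta chain pair it with the pre-T alpha chain, encoded by Ptcra, and signal through this pre-receptor. Signalling cells gain CD8 and CD4 and divide several times, which makes the dividing double-positive blasts the largest source of new thymocytes. Division then stops, the recombinase encoded by Rag1 and Rag2 is used on the receptor alpha locus, and small resting double-positive cells await selection. In the rat, CD8 appears before CD4, so cells between both stages carry CD8 alone.

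DP-P cells were deep. Their median was 15439 UMIs and 4026.5 genes per cell, against 3205.5 UMIs and 1601 genes in DP and 23190 UMIs and 4764.5 genes in DN. The median share of mitochondrial UMIs was 1.72% in DP-P, 1.34% in DN and 5.22% in DP. Of the 848 barcodes, 4 also occurred in the stromal library of the series. Shares of cells with a UMI are therefore given after each cell was thinned at random to 2000 UMIs, which left out 2 DP-P cells, and levels are given as CPM, the UMIs of a gene in every 1000000 UMIs of the label.

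The marker genes given for the label were all present. Mki67, which encodes the proliferation antigen Ki-67, had 1114 CPM in DP-P (exact Poisson interval 1098 to 1130), the highest of the 21 labels with at least 20 cells. Mature cycling T cells followed with 800 CPM, DN with 450 CPM, and DP had 13.4 CPM. A Mki67 UMI was found in 83.8% of DP-P cells (81.1 to 86.2), 54.5% of DN cells and 1.68% of DP cells after thinning, and in 99.1% of DP-P cells without it. In Mature CD4-1 cells, 0 of 121 thinned cells had one, for which the upper limit of the exact interval was 3.003%. Ptcra had 264.9 CPM in DP-P, 271.7 CPM in DN and 207.5 CPM in DP, and its ratio of DP-P to DN was 0.975 (exact conditional binomial interval 0.931 to 1.02), so DP-P and DN did not differ beyond counting error. Cd8a, 1 of the 2 CD8 chains, had 892 CPM in DP-P, 702 CPM in DN and 1497 CPM in DP.

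Coreceptor RNA split the label. Cd4 and Cd8a were both detected in 41.8% of thinned DP-P cells (38.5 to 45.3), 27.0% of DN cells and 83.1% of DP cells. The authors' initial clusters split DP-P into 521 cells of cluster DP-P1, 199 cells of cluster DN, 123 cells of cluster DP-P3 and 5 others. In cluster DP-P3 both coreceptors were found in 72.4% of DP-P cells, in cluster DP-P1 in 46.6%, and in cluster DN in 10.6%. Cd4, with or without Cd8a, was found in 14.1% of the DP-P cells of cluster DN (9.56 to 19.7), against 12.1% (6.19 to 20.6) in Mature CD8-1 cells, which should lack it. Median depths were 35471 and 10290 UMIs before thinning. Cd8a was found in 61.8% of the same DP-P cells, against 10.7% in Mature CD4-1 cells and 71.2% in all DN cells. The DP-P cells of cluster DN were 23.5% of the cells but 45.9% of the DP-P UMIs. Their Cd8a share was thus above that of Mature CD4-1 cells, and their Cd4 share within the interval of Mature CD8-1 cells. In DN cells of the same cluster, of like depth (median 37879 UMIs), Cd4 was found in 7.85% (4.46 to 12.6) and both coreceptors in 4.71%, both below the DP-P shares, and the Cd4 intervals overlapped. Conversely, 151 of the 156 cells in cluster DP-P2 carried the label DN, and 51.0% of them had both coreceptors.

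**Figure D1:**
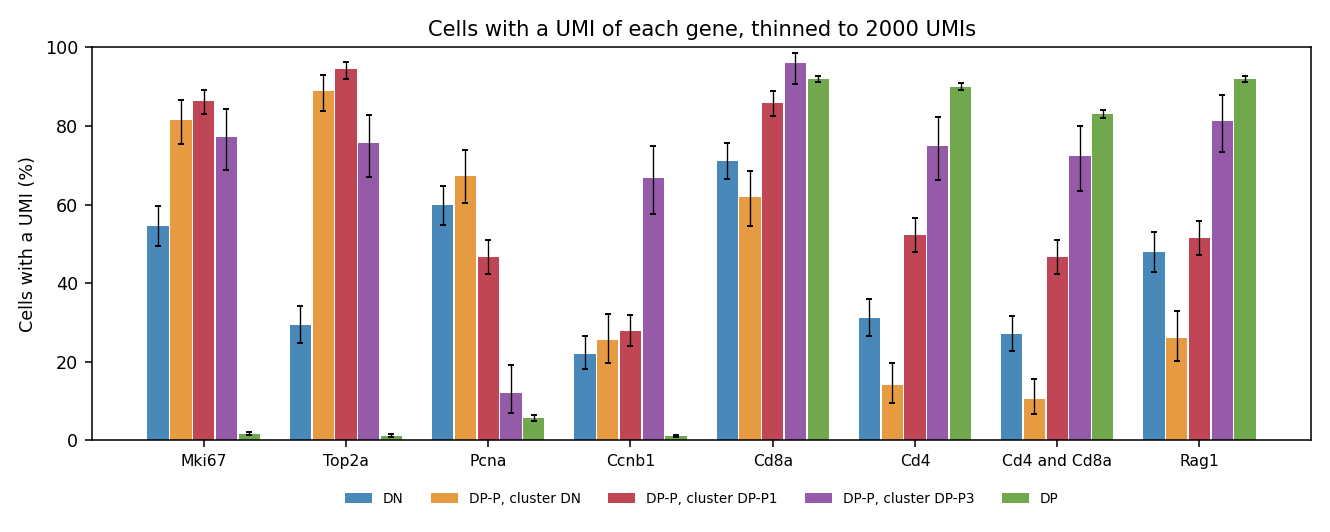
Share of cells with a UMI (vertical axis, percent, bars with 95% exact Clopper-Pearson intervals) for 7 genes and for Cd4 with Cd8a, in DN, in DP-P cells of clusters DN, DP-P1 and DP-P3, and in DP, each cell thinned to 2000 UMIs. Mki67 and Top2a are frequent in all 3 groups of DP-P cells and rare in DP, while Cd4 runs from 14.1% to 52.2% to 74.8% across the DP-P clusters.

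The first comparison asked what sets dividing from resting double-positive cells. Genes were compared when they had at least 100 UMIs over both labels, and a label with fewer than 3 UMIs was set to 3. Of 10494 genes, 1491 (14.2%) were at least 2-fold higher in DP-P than in DP and 2184 (20.8%) at least 2-fold lower. Scaling by trimmed mean of M-values (TMM) factors turned this split to 2091 higher and 1327 lower. It moved the median log2 ratio of all genes from -0.27 to 0.06, and the ratios to DP below should be read against that shift. Against DN, of 9774 genes, 287 (2.94%) were at least 2-fold higher in DP-P and 171 (1.75%) at least 2-fold lower, and the median of all genes was 0.01. With totals that leave out mitochondrial, ribosomal protein and haemoglobin genes, the counts against DN were 227 and 238. Without the DP-P cells of cluster DN they were 529 and 683. Fewer cells of a kind and less RNA per cell cannot be told apart in such sums.

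Genes of G2 and mitosis separated DP-P from both neighbours. All 56 of the listed genes were at least 2-fold higher in DP-P than in DP, with a median log2 ratio of 5.64. Against DN, 39 of 56 were at least 2-fold higher and all 56 had ratios above 1, with a median log2 ratio of 1.36. By initial clusters alone, 13 of 56 passed 2-fold over DN (median 0.81), beside 534 of all genes compared. In the main comparisons, 14.2% of all genes were at least 2-fold higher than in DP and 2.94% higher than in DN. The list summed to 14805 CPM in DP-P, 5926 CPM in DN and 644 CPM in DP. Top2a, the topoisomerase that untangles replicated chromosomes, had 1798 CPM in DP-P, 464 CPM in DN and 6.45 CPM in DP, which is 279-fold (233 to 336) over DP and 3.88-fold (3.76 to 3.99) over DN. By initial clusters alone, the Top2a ratio to DN was 1.95 and that of Mki67 1.70, both short of 2-fold. A Top2a UMI was found in 90.0% of thinned DP-P cells, 29.3% of DN cells and 1.25% of DP cells. Nusap1, a spindle microtubule protein, had 506 CPM in DP-P, 96.4 CPM in DN and 2.33 CPM in DP. Kif11, the motor that pushes spindle poles apart, had 356 CPM, 82.7 CPM and 3.75 CPM in the same order. The B cyclins differed less between the dividing labels: Ccnb1, the mitotic cyclin bound to Cdk1, had 257 CPM in DP-P and 177 CPM in DN.

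The genes of the G1 to S transition behaved otherwise. Of 44 listed genes, 43 were at least 2-fold higher in DP-P than in DP, with a median log2 ratio of 4.15. None of the 44 was 2-fold higher than in DN, 5 were at least 2-fold lower, and the median log2 ratio to DN was -0.35. Over all genes, 14.2% were higher than in DP, and 2.94% were higher and 1.75% lower than in DN. The lower genes of the list were 12 of 44 without the DP-P cells of cluster DN, 11 with the mean of the cells' CPM, 9 of 38 after thinning and 2 of 44 by initial clusters alone. Over all genes compared, those lower than in DN numbered 683, 288, 45 and 854 in the same order, against 171 in the main comparison. Mcm6, a subunit of the replicative helicase, had 201 CPM in DP-P, 294 CPM in DN and 9.99 CPM in DP. Cdc6, which loads that helicase on origins in G1, had 42.7 CPM in DP-P and 98.7 CPM in DN, 2.31-fold lower in DP-P. Hells, a chromatin remodeller, was 2.42-fold lower and Ung, the uracil glycosylase, 6.30-fold lower than in DN. Using the initial clusters alone, Cdc6 and Hells no longer passed 2-fold, with ratios to DN of 0.827 and 0.701. Rrm2, the small subunit of ribonucleotide reductase, had 192 CPM in DP-P and 114 CPM in DN, a ratio of 1.69. Tyms, which makes thymidylate, had 236 CPM and 139 CPM, a ratio of 1.70, and neither passed 2-fold.

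**Figure D2:**
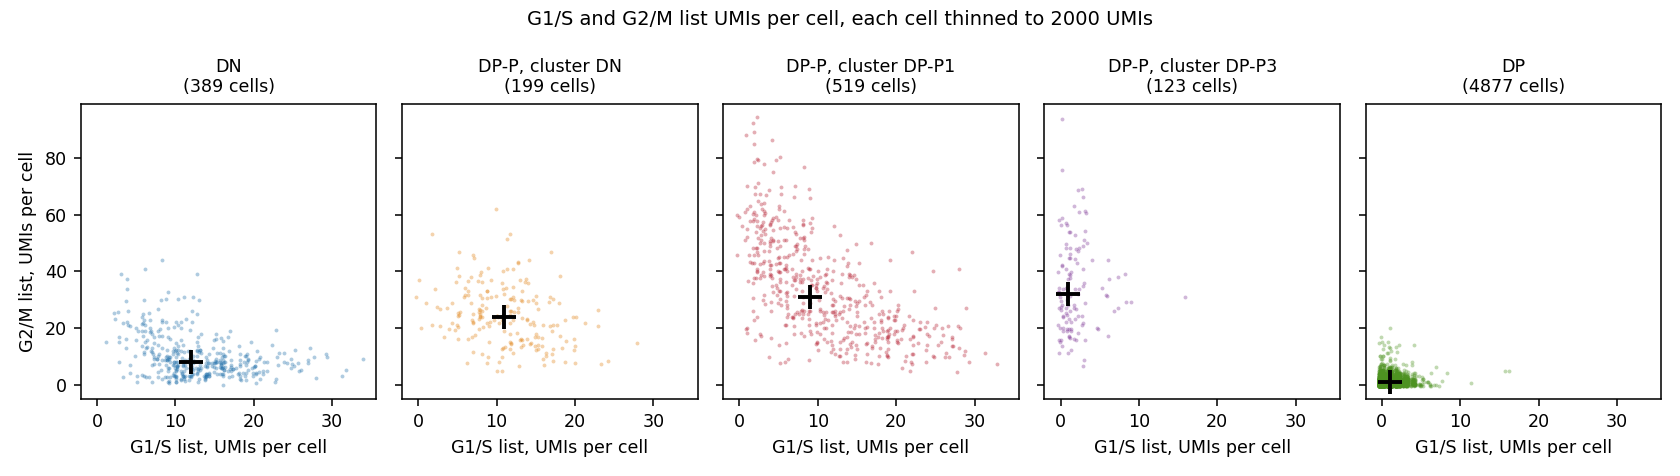
UMIs of the G1/S list (horizontal axis) and of the G2/M list (vertical axis) in each cell, thinned to 2000 UMIs, in DN, in DP-P cells of clusters DN, DP-P1 and DP-P3, and in DP. Each point is a cell, shifted by a small random amount, and crosses mark medians. DP-P cells of clusters DN and DP-P1 lie high on both axes, those of cluster DP-P3 lie along the vertical axis, and DP cells lie near the origin.

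Per cell, the thinned DP-P cells had a median of 28 UMIs of the G2/M list and 8 of the G1/S list. DN cells had 8 and 12, and DP cells 1 and 1. None of 846 DP-P cells lacked UMIs of both lists, while 17.3% of DP cells did. More G2/M than G1/S UMIs were found in 83.5% of DP-P cells and in 30.8% of DN cells, although the G2/M list is longer. In DP-P cells of cluster DP-P3, all 123 cells had more G2/M UMIs, with medians of 32 and 1. So did all 36 DN cells of that cluster, with medians of 21.5 and 7, and 69.7% of 33 Mature cycling T cells. In DN cells of clusters DN and DP-P2 the shares were 38.2% and 7.28%. An excess of G2/M UMIs was thus not particular to DP-P.

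Replication-dependent histone genes had a larger median ratio of DP-P to DN than the G1/S or G2/M list. These genes encode the histones that package new DNA, and they are transcribed while DNA is copied. Their 45 members were gathered by symbol after their values had been seen, and 43 had enough UMIs to compare. Of these, 40 were at least 2-fold higher in DP-P than in DP (median log2 ratio 3.98) and 41 at least 2-fold higher than in DN (median 2.26). Over all genes the shares were 14.2% and 2.94%. The list summed to 36307 CPM in DP-P, 7178 CPM in DN and 3819 CPM in DP. Hist1h2ac, an H2A gene, had 491 CPM in DP-P, 76.7 CPM in DN and 6.29 CPM in DP. H4f3, an H4 gene, had 2456 CPM, 388 CPM and 156 CPM. H2ac10, another H2A gene, had 412 CPM, 89.6 CPM and 1.06 CPM. Copies of these families are nearly identical in sequence, and the split of reads among them is uncertain for each single gene. The library was made from polyA RNA, and most of these mRNAs end in a stem-loop in place of a poly(A) tail.

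Histone UMIs divided the DP-P clusters. Thinned DP-P cells had a median of 104 histone UMIs in cluster DP-P1, 59 in cluster DN and 6 in cluster DP-P3. DN cells had a median of 6 and DP cells of 7. Cluster DN held cells of both labels at nearly the same depth. There the 191 thinned DN cells had a median of 5 but an upper quartile of 33, and the DP-P cells a lower quartile of 44.5. Within that cluster, 41 of 43 histone genes were at least 2-fold higher in the DP-P than in the DN cells, as were 31 of 56 G2/M genes, while 157 of 8679 genes (1.81%) were higher and 42 (0.484%) lower over all. Of the 44 G1/S genes, none was 2-fold higher there and 1 was lower. These levels are not independent of the labelling, and the histone list was chosen after its values were seen. The counts therefore describe the cells that each label gathered and test no enrichment.

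**Figure D3:**
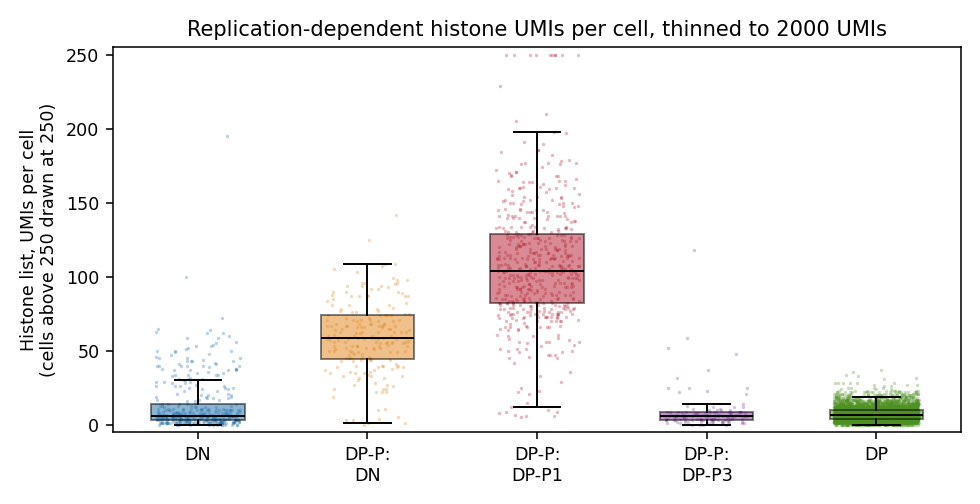
UMIs of the replication-dependent histone list in each cell (vertical axis, cells thinned to 2000 UMIs, cells above 250 drawn at 250) for DN, DP-P by cluster, and DP. Boxes span the quartiles with the median as a line, whiskers reach the farthest cell within 1.5 box lengths, and points are cells. DP-P cells of clusters DN and DP-P1 lie above DN, while those of cluster DP-P3 overlap DN and DP.

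The start regions of these genes share short sequence words known from cell cycle control. CCAAT is bound by the factor NF-Y. The cell cycle homology region (CHR), searched as TTTGAA or TTCGAA, is the site through which the DREAM and MuvB complexes hold mitotic genes silent in resting cells. E2F sites, searched as TTTCCCGC, TTTCGCGC, TTTGCCGC and TTTGGCGC, serve G1/S genes. All words were searched on both strands in the 200 bases before the annotated start, in RefSeq promoters of build GRCr8, and the words of different kinds can overlap. Of 56 G2/M genes, 50 had a promoter in the table, and 68% of these held CCAAT, 56.0% CHR and 44.0% both. Among all 27457 promoters the shares were 29.4%, 13.5% and 4.13%, and among the 8342 promoters of genes compared with DP they were 32.8%, 9.54% and 3.58%. An E2F word was found in 29.4% of 34 G1/S promoters, against 1.54% of all promoters and 3.30% of those of compared genes. CCAAT was in 55.9% and CHR in 8.82% of the G1/S promoters, and an E2F word in 2% of the G2/M promoters. Of 42 histone promoters, 92.9% held CCAAT and 50.0% the core promoter word TATAAA, against 10.5% of all promoters and 4.72% of those of compared genes for the latter. CHR was in 31.0% and an E2F word in 19.0% of the histone promoters. A word is a description of the sequence and not a measured binding site.

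Below are promoters of 6 genes the comparisons turn on, 5′ to 3′ on the gene's strand, from RefSeq (GRCr8), with every match of these words in capitals. Top2a lies at chr10:84473094-84473293 (minus strand), Mki67 at chr1:199952594-199952793 (minus) and Ccnb2, a mitotic cyclin, at chr8:79981659-79981858 (minus). Mcm6 lies at chr13:42404353-42404552 (minus), Hist1h2ac at chr17:47174415-47174614 (plus) and H2ac10 at chr17:41999056-41999255 (minus).
Top2a: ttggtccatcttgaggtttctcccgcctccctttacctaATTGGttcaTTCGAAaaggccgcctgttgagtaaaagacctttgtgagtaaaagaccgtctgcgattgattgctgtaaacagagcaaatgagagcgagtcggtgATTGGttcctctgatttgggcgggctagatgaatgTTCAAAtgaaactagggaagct
Mki67: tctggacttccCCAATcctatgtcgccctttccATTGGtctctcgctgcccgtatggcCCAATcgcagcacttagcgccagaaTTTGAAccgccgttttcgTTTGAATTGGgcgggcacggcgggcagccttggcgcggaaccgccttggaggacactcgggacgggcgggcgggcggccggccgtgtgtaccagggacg
Ccnb2: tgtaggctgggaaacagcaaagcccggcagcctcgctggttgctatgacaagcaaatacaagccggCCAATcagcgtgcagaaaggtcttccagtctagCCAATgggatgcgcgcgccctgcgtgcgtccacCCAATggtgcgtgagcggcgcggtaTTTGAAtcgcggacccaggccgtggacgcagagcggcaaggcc
Mcm6: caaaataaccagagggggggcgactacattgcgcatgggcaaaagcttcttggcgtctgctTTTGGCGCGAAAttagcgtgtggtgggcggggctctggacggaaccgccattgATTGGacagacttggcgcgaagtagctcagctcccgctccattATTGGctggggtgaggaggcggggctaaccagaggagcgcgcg
Hist1h2ac: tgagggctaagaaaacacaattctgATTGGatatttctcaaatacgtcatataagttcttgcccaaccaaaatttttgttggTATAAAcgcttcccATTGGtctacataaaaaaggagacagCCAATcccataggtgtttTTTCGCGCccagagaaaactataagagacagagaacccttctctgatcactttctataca
H2ac10: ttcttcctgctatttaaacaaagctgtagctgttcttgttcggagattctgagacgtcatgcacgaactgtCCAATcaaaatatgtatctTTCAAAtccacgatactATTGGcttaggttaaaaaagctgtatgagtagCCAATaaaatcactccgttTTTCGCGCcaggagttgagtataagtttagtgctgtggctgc
The 3 mitotic promoters hold 2, 4 and 3 CCAAT words in the order shown and 2, 2 and 1 CHR words, and no E2F word of this set. Mcm6 holds 2 overlapping E2F words and no CHR. Both histone promoters hold 3 CCAAT words and 1 E2F word. Of this pair, TATAAA is in that of Hist1h2ac and CHR, with 1 word, in that of H2ac10.

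Regulators of the cycle were mixed. Of 41 cyclin, kinase, inhibitor and E2F genes compared with DP, 26 were at least 2-fold higher and 5 at least 2-fold lower. Over all genes the shares were 14.2% and 20.8%. Foxm1, the factor that drives mitotic genes, had 47.8 CPM in DP-P, 12.7 CPM in DN and 1.64 CPM in DP. The repressors E2f7 and E2f8, which shut off G1/S genes late in S phase, had 53.6 and 67.3 CPM in DP-P, 25.8 and 36.1 CPM in DN, and 0.634 and 0.317 CPM in DP. Ccnd3, the D cyclin needed for expansion at this stage, had 445 CPM in DP-P, 404 CPM in DN and 364 CPM in DP, and its ratio to DP was 1.22 and to DN 1.10. Ccnd2, the D cyclin of earlier thymocytes, had 3.8 CPM in DP-P, 15.5 CPM in DN and 0.317 CPM in DP.

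Some inhibitors of division were among the genes above DN. Of 42 genes of the list compared with DN, 9 were at least 2-fold higher, 1 was lower and 11 had ratios below 1. Over all genes, 2.94% were higher and 1.75% lower. Cdkn2d, encoding p19Ink4d, had 244 CPM in DP-P, 48.0 CPM in DN and 191 CPM in DP, 5.08-fold (4.64 to 5.58) over DN. Cdkn2c, encoding p18Ink4c, had 119 CPM in DP-P, 34.5 CPM in DN and 13.0 CPM in DP. Cdkn1b, encoding p27Kip1, had 311 CPM in DP-P, 181 CPM in DN and 644 CPM in DP. Btg2, an antiproliferative gene, had 914 CPM, 493 CPM and 1846 CPM. The ratios of these last genes to DN, 1.72 and 1.85, did not pass 2-fold. Within DP-P, Cdkn2d had 92.9 CPM in cluster DN, 384 CPM in DP-P1 and 320.3 CPM in DP-P3. Cdkn1b and Btg2 were likewise lowest in cluster DN, with 169 and 527 CPM, while Cdkn2c was lowest in DP-P3 with 59.2 CPM against 75.5 CPM in cluster DN.

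Genes of growth were graded between the labels, and within DP-P they were highest in cluster DN. Of 30 listed genes of ribosome making, glycolysis and nutrient uptake, 20 were at least 2-fold higher in DP-P than in DP (median log2 ratio 1.53). Against DN, 1 of 30 was at least 2-fold lower and 28 had ratios below 1 (median -0.64). Over all genes, 14.2% were higher than in DP and 1.75% lower than in DN. Npm1, a nucleolar chaperone, had 2299 CPM in DN, 1288 CPM in DP-P and 565 CPM in DP. In DP-P cells it had 2086 CPM in cluster DN, 601 CPM in DP-P1 and 653 CPM in DP-P3. Myc, the growth regulator, had 42.9 CPM in cluster DN, 4.65 CPM in DP-P1 and 6.89 CPM in DP-P3, against 36.2 CPM in DN and 5.29 CPM in DP. Shmt2, a mitochondrial enzyme of one-carbon supply, had 64.9 CPM, 6.59 CPM and 4.13 CPM over the 3 clusters. Against cluster DP-P1, 15 of 27 listed growth genes were at least 2-fold higher in the DP-P cells of cluster DN, while over all 8657 genes 496 (5.73%) were higher and 316 (3.65%) lower. Without the DP-P cells of cluster DN, 12 of 27 growth genes were at least 2-fold above DP (median 0.70), beside 1084 of all 10035 genes, and the Myc ratio to DP went from 4.24 to 0.941. Against DN, 18 of 29 were then at least 2-fold lower (median -1.34), beside 683 of all 9211 genes. The list summed to 9727 CPM in the DP-P cells of cluster DN, 4459 CPM in DP-P1 and 3872 CPM in DP-P3, with 2377 CPM in DP.

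Chromatin and repair genes accompanied the cycle genes. Over all genes, 14.2% were at least 2-fold higher in DP-P than in DP. Against DN, 2.94% of all genes were higher and 1.75% lower. Of 23 chromatin and tubulin genes, 18 were at least 2-fold higher in DP-P than in DP (median 2.70) and 2 were 2-fold higher than in DN. Hmgb2, a chromatin protein of dividing cells, had 4660 CPM in DP-P, 3368 CPM in DN and 370 CPM in DP, and H2ax, the histone variant marked at DNA breaks, 440 CPM, 143 CPM and 33.2 CPM. Of 22 repair genes, 17 were at least 2-fold above DP (median 3.19), and none was 2-fold above DN. Pclaf, a partner of the sliding clamp, had 902 CPM in DP-P, 574 CPM in DN and 7.40 CPM in DP. Of 21 genes of nucleotide supply, 16 were at least 2-fold above DP (median 1.91). Against DN, 1 of 21 was 2-fold lower, none was higher, and 15 had ratios below 1 (median -0.57). Without the DP-P cells of cluster DN, 9 of 20 were above DP (median 0.99), beside 1084 of all genes. Below DN were then 12 of 21 (median -1.07), beside 683 of all genes.

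The clusters differed in cycle genes as well. The G1/S list summed to 5473 CPM in the DP-P cells of cluster DN, 5531 CPM in DP-P1 and 1172 CPM in DP-P3. Of 42 G1/S genes, 41 were at least 2-fold lower in DP-P3 than in DP-P1, as were 41 of 43 histone genes, against 569 of 7505 genes (7.58%) lower and 288 (3.84%) higher. The G2/M list summed to 12327, 16813 and 17913 CPM in the same order. Within it, 8 genes were at least 2-fold higher in DP-P3 than in DP-P1 and 5 lower. Ccnb1 had 627 CPM in DP-P3 and 229 CPM in DP-P1, Ccnb2 786 and 289.6 CPM, and Cenpf, a kinetochore protein, 1373 and 591 CPM. Cdc25b, the phosphatase that starts mitosis, had 189 and 76.0 CPM. Of the 3 large DP-P clusters, DP-P3 thus had the highest B cyclin RNA and the lowest sums of G1/S and histone RNA.

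**Figure D4:**
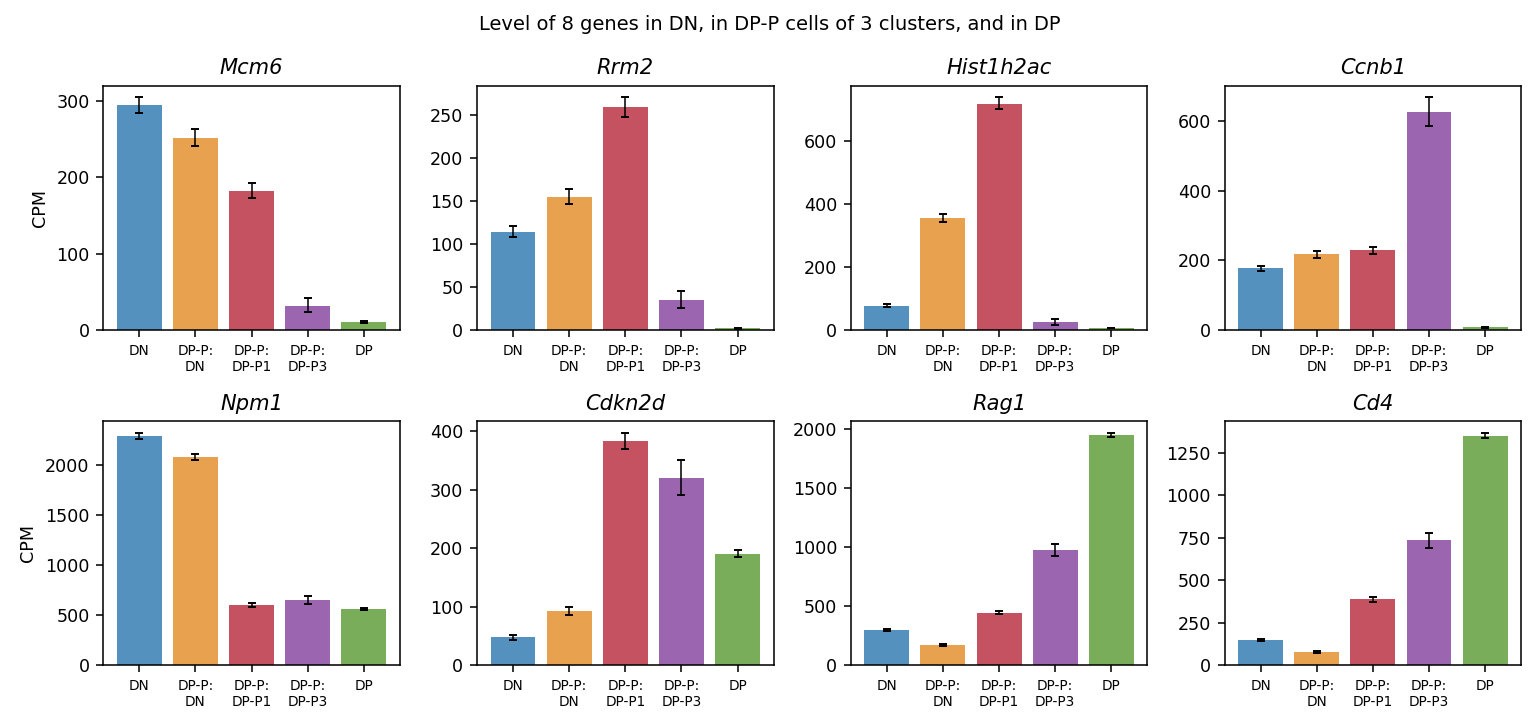
Level of 8 genes (vertical axis, CPM, each panel on its own scale from 0) in DN, in DP-P cells of clusters DN, DP-P1 and DP-P3, and in DP, with 95% exact Poisson intervals for counting error. Npm1 is high in DN and in DP-P cells of cluster DN, Hist1h2ac and Rrm2 are highest in DP-P1, Ccnb1 in DP-P3, and Rag1 and Cd4 in DP.

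Genes of the resting double-positive program were low in DP-P. Of 15 coreceptor and double-positive stage genes compared, 10 were at least 2-fold lower than in DP (median log2 ratio -1.27), or 7 with TMM factors. Of all genes, 20.8% were lower than in DP, or 1327 of 10494 with TMM factors. None of the 15 differed 2-fold from DN, where 2.94% of all genes were higher and 1.75% lower. Without the DP-P cells of cluster DN, 5 of 15 were at least 2-fold higher than in DN, beside 529 of all genes compared. Cd4 had 274 CPM in DP-P, 149.7 CPM in DN and 1350 CPM in DP. Cd8b, the second CD8 chain, had 295 CPM, 198 CPM and 1372 CPM. Ccr9, the receptor for the cortical chemokine CCL25, was 7.23-fold lower than in DP, at 69.0 CPM. Bcl2l1, which encodes the survival protein Bcl-xL of resting double-positive cells, had 103 CPM in DP-P and 266 CPM in DP. Within DP-P, Cd4 had 76.6 CPM in cluster DN, 387 CPM in DP-P1 and 734 CPM in DP-P3.

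Of 10 recombination genes compared, 5 were at least 2-fold lower in DP-P than in DP and 1 was higher. Over all genes the shares were 20.8% and 14.2%. Against DN, where 2.94% of all genes were higher, 1 of the 10 was 2-fold higher. The median log2 ratio to DN was 0.098, with 6 genes above and 4 below DN. Rag1 had 367 CPM in DP-P, 298 CPM in DN and 1952 CPM in DP, and was found in 50.0% of thinned DP-P cells, 47.8% of DN cells and 92.0% of DP cells. In DP-P it had 175 CPM in cluster DN, 447 CPM in DP-P1 and 977 CPM in DP-P3. Rag2 had 26.1, 58.9 and 278 CPM in these clusters, with 162 CPM in DP, so that DP-P3 lay above DP. Lig4, the ligase that seals recombined ends, was 6.62-fold lower in DP-P than in DP. Xrcc6, encoding the end-binding protein Ku70, lay the other way with 31.0 CPM in DP-P and 6.82 CPM in DP.

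The pre-receptor machinery was present at levels near those of DN. Of 16 receptor and signalling genes, 7 were at least 2-fold lower in DP-P than in DP, beside 20.8% of all genes. With TMM factors 3 of 16 were lower, beside 1327 of 10494 genes. None differed 2-fold from DN, where 2.94% of all genes were higher and 1.75% lower. Against DN, 14 of the 16 had ratios above 1, with a median log2 ratio of 0.22. Themis, needed for selection, had 494 CPM in DP-P and 1706 CPM in DP. Lck, the coreceptor kinase, had 319 CPM and 777 CPM, and Cd3e 499 CPM and 947 CPM. Among 28 transcription factors of the lineage, 8 were at least 2-fold lower in DP-P than in DP and 2 higher, beside 20.8% and 14.2% of all genes. With TMM factors they were 2 and 3. Tcf12, encoding the E protein HEB, had 1205 CPM in DP-P and 3604 CPM in DP. Id1, an inhibitor of E proteins, had 26.1 CPM in DP-P, 12.8 CPM in DN and 6.13 CPM in DP.

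Genes of the earliest stages were low in all 3 labels. Of 19 listed genes, 5 had no UMI in DP-P, among them Cd34 and Tal1, and 7 had enough UMIs to compare. Kit, the receptor of early progenitors, had 10.5 CPM in DP-P and 14.3 CPM in DN. Il2ra, encoding CD25 and a marker of late double-negative cells, had 8.77 CPM in DP-P, 3.51 CPM in DN and 67.5 CPM in DP. Of the 3 labels, DN thus had the lowest level of this gene. Among 13 Notch pathway genes compared, 4 were at least 2-fold higher in DP-P than in DP and 2 lower, with a median log2 ratio of -0.02, beside 14.2% and 20.8% of all genes. Hes1, a direct Notch target, had 61.7 CPM in DP-P, 84.7 CPM in DN and 3.23 CPM in DP, and within DP-P 102 CPM in cluster DN, 30.9 CPM in DP-P1 and 11.02 CPM in DP-P3. Notch1 itself had 76.7, 23.9 and 37.9 CPM in these clusters. Its ratio to DP of 3.05 was 1.91 after thinning, 1.74 by initial clusters and 1.60 without the DP-P cells of cluster DN.

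The medians of the remaining lists were near that of all genes, while some members passed 2-fold. Survival, selection and immediate early genes had median log2 ratios to DP of -0.21, -0.01 and -0.05, and each median changed sign under at least 1 other scaling. Surface and migration genes had a median of -0.40, and summed to 2299 CPM in DP-P and 4801 CPM in DP. Of 16 such genes, 6 were at least 2-fold lower than in DP and 2 higher. Over all genes the shares were 20.8% and 14.2%. Of 12 survival genes 4 were lower and none higher, and of 15 immediate early genes 1 was lower and 5 higher. Of 10 selection genes, 1 was lower and 1 higher. Bmf, a death gene, stood out among the survival genes with 2.40 CPM in DP-P and 32.1 CPM in DP.

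Over DP the order of ratios was led by Mxd3, an S phase partner of the MAX protein, at 83.2 CPM in DP-P, 10.3 CPM in DN and 3 UMIs in DP, a ratio of 525 (179 to 2547). H2ac10, Top2a, Pbk, Sgo2, Kif14, Esco2, Nusap1, E2f8, Stil, Hjurp and Ska1 followed. Mature cycling T cells, not part of these comparisons, had 81.6 CPM of Mxd3 (63.5 to 103) and 1317 CPM of Top2a. Mxd3 also ranked second among genes above both DN and DP, where 7 of the 12 leading genes were histones. The other 5 were Pif1, Mxd3, the spindle gene Ckap2l, the cyclin gene Ccnf and Nostrin. Pif1, a helicase, had 8.24 CPM in DP-P and no UMI in DP, and its ratio of 52.0 to DP rests on the floor of 3 UMIs. Ccnf had 108 CPM in DP-P and 19.7 CPM in DN, and Nostrin had 29.2 CPM in DP-P. The largest ratio over DN was that of Sdk1, a cell adhesion gene, at 12.4 CPM in DP-P, 1.11 CPM in DN and 2.48 CPM in DP. Within DP-P, Sdk1 had 2.42 CPM in cluster DN, 19.1 CPM in DP-P1 and 31.0 CPM in DP-P3.

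The genes lowest against DP included several outside the listed programs. Tecta, known from the inner ear, had 4.38 CPM in DP-P and 112 CPM in DP, 25.6-fold lower. Sox6, a transcription factor, had 5.09 CPM and 95.2 CPM, 18.7-fold lower. The chemokine genes Ccl3 and Ccl4 had 5.96 and 12.4 CPM in DP-P and 102 and 195 CPM in DP. Against DN, the ratios of these 4 genes ran from 1.36 for Tecta to 2.13 for Ccl4. Pde6c, Colq, Nebl, Tdrd9, Dlgap2, Carmil1, St3gal6 and Cep112 completed the 12. Lowest against DN, after Ung, came Dipk1b, Car12, Alpl, Ccnd2, Mettl1, Rflnb, Trmt61a, Abhd14a, Ankrd24, Snhg4 and Nkain1. Mettl1, a tRNA methyltransferase, had 3.98 CPM in DP-P and 15.3 CPM in DN.

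Set between its neighbours, DP-P lay closer to DN. DN and DP differed at least 2-fold for 4839 of 10915 genes with 100 UMIs over the 3 labels. The DP-P level was between both for 3770 of them (77.9%), above both for 570 and below both for 499. Of the 3770 genes between both, the DP-P level was nearer to DN than to DP for 3391. Over all 4839 genes, the median gene had moved 19.1% of the way from DN to DP. That median was 1.01% for the DP-P cells of cluster DN, 29.6% for DP-P1 and 52.2% for DP-P3. For the direct contrast of DN with DP, 1807 of 10244 genes (17.6%) were higher in DN and 2692 (26.3%) lower.

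Markers of other cell types were scarce in DP-P. The 7 B cell genes summed to 6.96 CPM, led by Blk, with Cd79b and Ms4a1 at 0. The 12 myeloid genes summed to 118 CPM, of which Cst3 gave 112 CPM, against 23939 CPM in cells labelled B+myeloid. Among erythroid genes 6 of 7 were at 0, as were 5 of 7 mesenchymal genes and 6 of 8 epithelial genes, including Foxn1 and Psmb11. Endothelial genes summed to 21.0 CPM with Cdh5 at 0, and genes of natural killer and gamma delta T cells to 13.6 CPM. No doublet caller was run.

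On the section, the label DP-P was ranked first in 12298 of 592087 labelled bins of 20 chip units, or 10 µm, which is 2.08% of bins. In the cell library it was 9.92% of annotated cells, a share over another population. RCTD, a deconvolution that estimates which labels make up a bin, gave these labels, and a bin can hold several cells. The share was 2.63% (2.54 to 2.72) in the capsular area and 2.19% (2.15 to 2.24) in the cortex. In the remaining regions, mECA and mEFA, it was 0.0996% and 0.253%. The capsular area to cortex ratio was 1.20 (1.15 to 1.25) for DP-P, 1.06 for DN and 1.01 for DP. In bins right of the median x, the DP ratio was 0.965 and the DP-P ratio 1.25. In the authors' segmented cell bins the ratios were 1.21 (1.18 to 1.25) for DP-P and 1.20 (1.20 to 1.21) for DN, so that there the labels did not differ beyond counting error. All 3 labels were rare in mECA and mEFA, with DN at 2.74% and 7.71% and DP at 0.727% and 3.07%.

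Among the bands with over 1000 bins, the DP-P share was lowest at the capsule itself and highest just beneath it. Its share was 1.13% at distance 0, 2.56% up to 25 µm, 3.14% (2.996 to 3.30) between 25 and 50 µm and 2.73% between 50 and 100 µm. From 100 to 600 µm it was 2.02% to 2.07%, and 2.40% between 600 and 1200 µm. Beyond 1200 µm only 74 bins lay, of which 3, or 4.05% (0.844 to 11.4), were DP-P. Among the bands with over 1000 bins, DN and DP were also lowest at distance 0, with 39.4% and 21.1%. DN was highest in the same band as DP-P, with 52.2% between 25 and 50 µm. DP had 26.4% there and was highest between 50 and 100 µm, with 28.4%. The median bin of the band between 25 and 50 µm had 275 UMIs, against 346 UMIs up to 25 µm and 324 UMIs between 200 and 400 µm.

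Depth moved with the label. The median DP-P bin had 246 UMIs, against 341 for DN and 267 for DP. In cortex and capsular area together, the DP-P share was 4.32% in the 54146 bins with the fewest UMIs, about 1 in 10, and 0.729% in the 52784 deepest. DP went from 40.0% to 7.12% and DN from 24.9% to 62.8% over the same bins. The capsular to cortex ratio of DP-P was 1.36 in bins at or above the median of 326 UMIs and 1.17 below it, and that of DN was 1.12 and 0.960. The first label was marked confident in 35.1% of DP-P bins, 57.1% of DN bins and 58.3% of DP bins, and among confident first labels the DP-P ratio was 1.12 (1.04 to 1.20). The part of depth in the placement of DP-P was not tested beyond these splits.

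**Figure D5:**
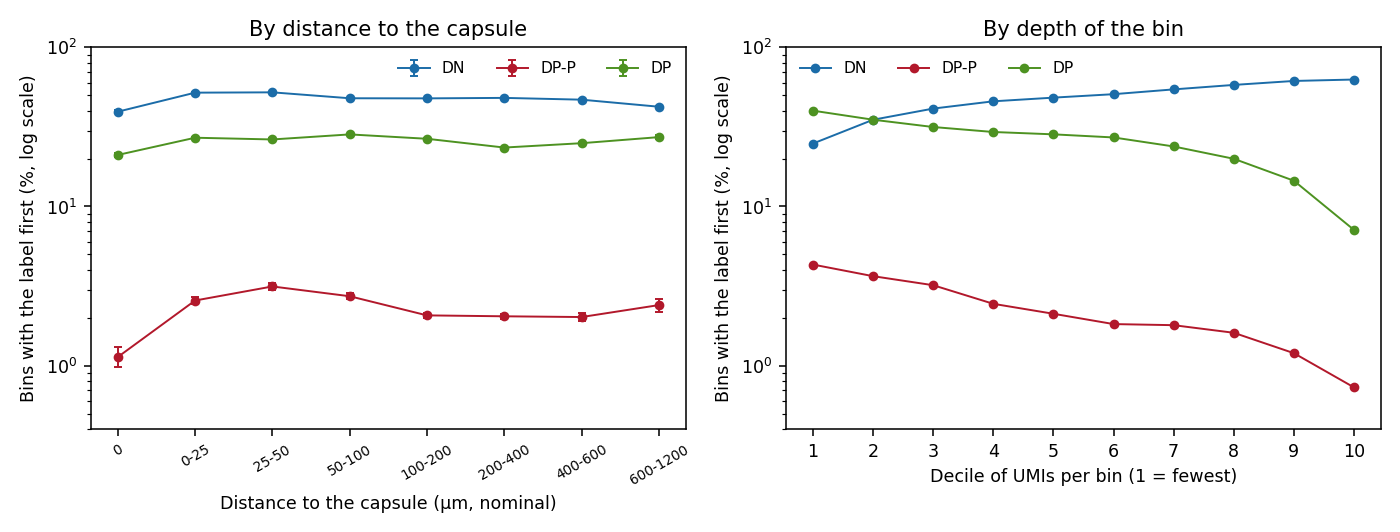
Share of bins with DN, DP-P or DP as first label (vertical axes, percent, log scale) in cortex and capsular area, by nominal distance to the capsule (left, with 95% exact Clopper-Pearson intervals) and by decile of UMIs per bin (right). Bands with under 1000 bins are not drawn. Of those drawn, DP-P is highest at 3.14% between 25 and 50 µm and declines from 4.32% to 0.729% with depth, while DN is higher in deeper bins.

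Of 48460 labelled bins that touched a DP-P bin of cortex or capsular area, 3.88% were DP-P, 1.69 times its share there. DN and DP made up 49.4% and 27.1% of the touching bins, 1.03 and 1.05 times their shares. Bins of the other labels also touched their own kind more often, at 1.22 times the share for DN and 1.35 times for DP. Touching bins share cells and diffused RNA, and 1 cell can cover more than 1 bin. Where a DP-P bin had a second label, it was most often cTEC, the cortical epithelial cell, with 43.9%.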

How the data were processed

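The deposited counts of the thymocyte library are whole numbers of UMIs for each gene in each barcode. The submitters' processing notes name Cell Ranger 8.0.0, Seurat 5.3.0 and build mRatBN7.2 without saying which step each served. The deposited percent of mitochondrial UMIs is the authors' value per cell, and the deposited RCTD weights are fractions given by the authors for up to 3 labels per bin. Stromal expression is not used here. UMIs were summed per label (17104660 in DP-P, 10832406 in DN, 18914942 in DP) and divided by the label's total. Ratios have exact conditional binomial intervals, shares exact Clopper-Pearson intervals, ratios of section shares log-normal intervals. Called means at least 2-fold. Named are the 12 largest ratios per direction among genes with 100 UMIs and a UMI in 10% of cells of the higher label, without identifier-only names, and list members that show a range or role. Members, lists and rules were chosen with earlier results of these data known, and the histone list after its values were seen. On simulated counts for 10490 genes (DP-P against DP), all 100 genes raised 4-fold were called, as were all 92 of 100 lowered genes with enough UMIs to compare, and 0 others. The simulated counts were Poisson draws from a profile pooled over both labels, without variation between cells. They check the computation and do not measure the error of the real calls. Alternatives are in the closing section. Totals without histone genes, DP-P without cluster DN and bins below the median depth were chosen after seeing the data. Work used Python 3.11.15, NumPy 2.4.6, SciPy 1.17.1, pandas 2.3.3, matplotlib 3.10.9, edgeR 4.0.16 (TMM factors only) and seed 7.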

Additional observations from a re-analysis of the deposited data

Results flagged for a closer look

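The 28 barcodes of the thymocyte library without an annotation held 6 UMIs of the G2/M list among 27563 UMIs, a level of 218 CPM (79.9 to 474). That is above the 109 CPM that 3 UMIs would give, and it lies below the 644 CPM of DP and the 14805 CPM of DP-P. These barcodes entered no comparison.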

How the results depend on the processing

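No paired analysis was possible because the labels give single samples without replicate numbers. Thinning each cell to 2000 UMIs gave 873 genes higher than DP and 45 lower than DN, and median log2 ratios of 3.72 (G1/S to DP), 6.23 (G2/M to DP) and 1.75 (G2/M to DN). The mean of the cells' CPM gave 288 genes lower than DN, and medians of 6.17 (G2/M to DP), -0.60 (G1/S to DN) and 1.82 (G2/M to DN). TMM factors gave 1327 genes lower than DP and a G1/S median to DP of 4.47. A minimum of 20 UMIs gave 528 genes higher and 438 lower than DN. Initial clusters alone gave 534 and 854 against DN, with medians of -0.055 (G1/S) and 0.81 (G2/M). Leaving out the DP-P cells of cluster DN, an alternative chosen after seeing the data, gave 529 and 683, with medians of -0.52 and 1.54, and turned the Myc ratio to DP to 0.941. The share of DP-P cells with a Mki67 UMI was 66.0% at 1000 UMIs, 99.1% without thinning and 78.9% with initial clusters. The capsular to cortex ratio was 1.12 for confident labels, 1.36 for deep bins and 1.25 right of the median x. The causes were not tested. Over these and the other alternatives, 78 of 105 values of the main results stayed within 1.5 times of the main count or within the counting interval of a share or ratio, or the width taken for a median. The balance of higher and lower genes turned, against DP with TMM factors (2091 higher) and against DN with initial clusters, with cluster DN left out and with totals without mitochondrial, ribosomal protein and haemoglobin genes (227 and 238). Of 95 ratios of named genes past 2-fold, 23 fell short of it under at least 1 alternative, 20 of them with initial clusters alone. Depth limits genes with few UMIs in DP, where ratios rest on a floor of 3 UMIs, and bins of about 326 UMIs limit the section.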
